A study of Mus musculus with 14 samples.

Results

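The 10 transcription factor genes Sox4, Sox9, Myc, Lef1, Tcf7, Tcf7l2, Sp5, Cdx1, Cdx2 and Klf5 were examined in mouse intestinal organoids, epithelial structures grown from crypts, after deletion of Apc with or without Prox1. They respond to Wnt signalling, act in it or set intestinal identity. Members were the probes whose annotation carries 1 of these symbols, which gave 22 of the 45281 probes of the deposited table. They covered 9 of the 19051 genes with a probe, and none was annotated to Tcf7. Organoids were ex vivo cultures from C57Bl mice 2 to 3 months old. All carried floxed Apc alleles (Apc flox/flox) and a tamoxifen-inducible Cre under the villin promoter (villin-CreER). Deletion of Apc was thus aimed at epithelial cells in both genotypes. The Apc-Prox1 deleted organoids carried floxed Prox1 alleles in addition, and the Apc-deleted organoids did not. Tamoxifen was given for 2 days, R-Spondin1, a secreted Wnt agonist, was then withheld for 5 days to select Apc-mutant organoids, and RNA was taken at 7 days for Illumina bead arrays. Apc-Prox1 deleted organoids were represented by 2 libraries in series 1 and 2 in series 2, and Apc-deleted organoids by 4 and 2. A further 4 deposited entries, which hold 2 arrays under conflicting labels, were left out.

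In the Wnt pathway, Apc belongs to the complex that degrades beta-catenin, and without it beta-catenin accumulates and binds the TCF/LEF factors Tcf7, Lef1, Tcf7l1 and Tcf7l2 on DNA. Sox4, Sox9, Myc, Sp5 and Cdx1 are among the genes that this complex is known to activate in crypts or tumours. Cdx1 and Cdx2, caudal-type homeobox factors, and Klf5, a zinc-finger factor of proliferating crypt cells, belong to the network that keeps epithelium intestinal. Prox1, a homeobox factor, is itself known as a beta-catenin target in colorectal tumours.

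Levels are log2 array values, quantile normalised over all entries, with an array median of 6.78, close to the lowest value of 6.35. They were recovered from deposited ratios through a divisor per probe. That divisor was unique for the brightest probes of the members except Myc in series 1 and Lef1, where a doubled one, giving higher levels and larger differences, was also possible. A difference is the Apc-Prox1 deleted minus the Apc-deleted mean on that log2 scale, and low levels compress it. A gene was read through its brightest probe. It was called where the Benjamini-Hochberg adjusted p of limma, taken over all 26342 probes tested, was under 0.05. Nothing in the labels says whether replicates were separate animals or cultures, so these p-values measure the spread between these libraries, which may be technical. In bulk organoids, fewer cells of a type and less RNA per cell cannot be told apart.

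Prox1 itself, the gene deleted between the genotypes, stood at 7.85 and 8.29 in the Apc-Prox1 deleted libraries of series 1, against 9.50, 9.42, 10.44 and 9.89 in the Apc-deleted ones. In series 2 it stood at 8.65 and 9.53 in Apc-Prox1 deleted libraries, against 10.91 and 10.05 in Apc-deleted ones. Neither series showed overlap of the genotypes, and the difference was -1.59 (SE 0.22, adjusted p = 0.000185). The series 2 call, at -1.39 (adjusted p = 0.0259), was lost in 7 of 20 alternatives, at adjusted p up to 0.319, among them the fits without Apc-Prox1 deleted replicate 1 (adjusted p = 0.312) and without Apc-deleted replicate 1 (adjusted p = 0.271). Which exons were floxed is not given in the labels, so the probe is not known to lie in the deleted part. The Apc probe, at 7.01 to 7.57 in the 10 libraries, differed by 0.13 (adjusted p = 0.237). No group had intact Apc, so these values cannot show its loss. All 10 libraries correlated best with another of their own group. Of 6 intestinal epithelium markers tested, Vil1, the villin gene, had group means from 10.17 to 10.61, Cdh1 from 8.74 to 10.21 and Krt8 from 12.88 to 13.76, while the Epcam probe, at 6.67 to 6.78, and the Cdh17 probe, at 6.75 to 6.95, lay near the array median. Krt8 was called higher (0.50, adjusted p = 0.00716), a call lost without Apc-Prox1 deleted replicate 1 of series 1 (adjusted p = 0.0635). The sixth, Krt20, a keratin of differentiated cells, was at -0.39 (adjusted p = 0.167), with group means from 7.18 to 8.02. Fibroblast markers averaged 6.73 to 6.79 in every library.

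Over both series, 4 members were lower in Apc-Prox1 deleted organoids (Sox4, Sox9, Sp5 and Cdx1), Klf5 was higher, and Myc, Lef1, Tcf7l2 and Cdx2 did not pass. By the same rule 15.8% of the 13418 genes tested were called, 8.73% lower and 7.11% higher. The median difference was -0.32 over the 9 members and 0.002 over all genes tested. The members were chosen with earlier results of these data known, so these contrasts with all genes are not independent evidence. All 9 brightest probes passed the filter on dim probes, as did 14 of the 22 member probes. Within series 1, as estimated in the fit of all 4 groups, Sox4 and Sp5 were called lower, against 10.7% of genes called and 5.96% called lower. A fit of the series 1 libraries alone called 3 members, Tcf7l2 being the third. Within series 2 only Sox4 was, against 5.18% called and 3.09% called lower. The genotypes did not overlap in either series for Sox4, Sox9 and Sp5, which were lower, and Klf5, which was higher. That held, in 1 direction, for 17.2% of all genes tested, 9.0% lower and 8.16% higher. In limma's test of whether the genotype difference differed between the series, 0 members were called, against 0.619% of genes, and 1, Sp5, had an unadjusted p under 0.05.

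**Figure D1:**
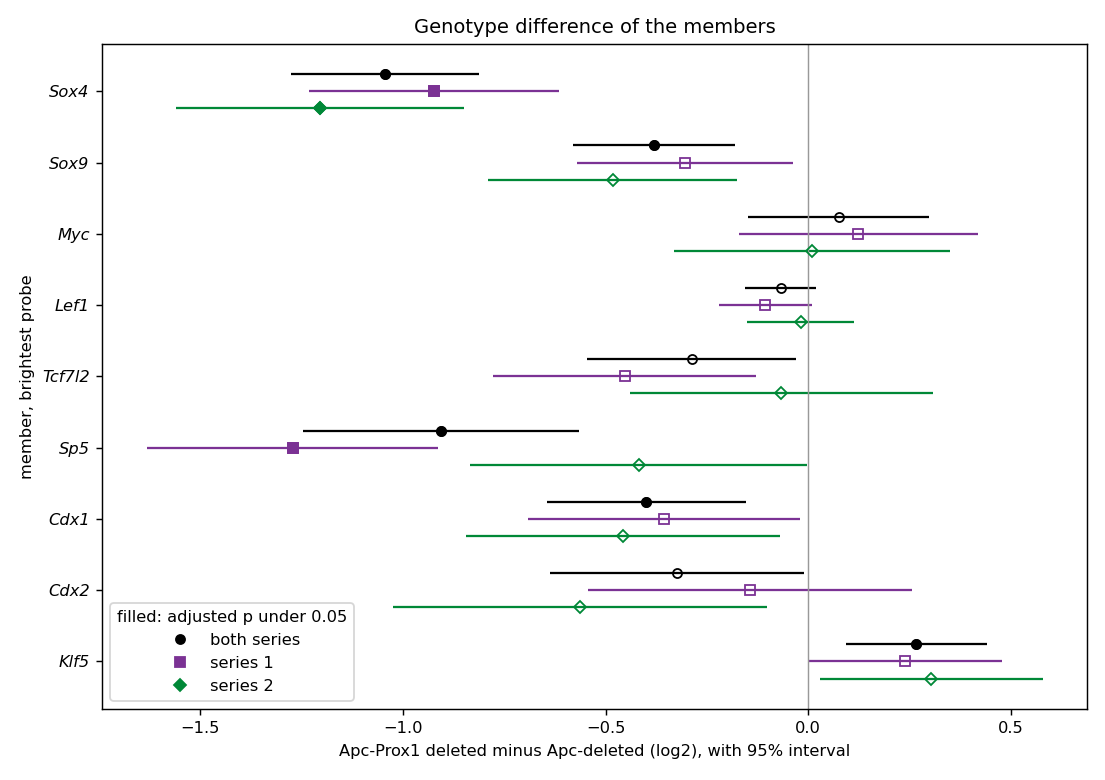
Genotype difference of each member's brightest probe, as Apc-Prox1 deleted minus Apc-deleted in log2, with its 95% interval, over both series (circles), in series 1 (squares) and in series 2 (diamonds); filled symbols have an adjusted p under 0.05. Sox4 lies near -1 in all 3 comparisons, Sp5 lies at -1.27 in series 1 and -0.42 in series 2, and Klf5 lies above 0.

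Sox4 and Sp5 had the largest differences among the members. The 250 bases upstream of their start sites are shown because both fell and their upstream sequences differ in TCF/LEF core motifs. The sequences are those of RefSeq on GRCm38.p6, each 5′ to 3′ on the gene's strand. Capitals mark matches, on either strand, to the core motif CTTTGAT or to the variants with AA (CTTTGAA), with a pair of T (CTTTGTT) or with TA (CTTTGTA) as the last letters.
Sp5, chr2:70474673-70474922, plus strand: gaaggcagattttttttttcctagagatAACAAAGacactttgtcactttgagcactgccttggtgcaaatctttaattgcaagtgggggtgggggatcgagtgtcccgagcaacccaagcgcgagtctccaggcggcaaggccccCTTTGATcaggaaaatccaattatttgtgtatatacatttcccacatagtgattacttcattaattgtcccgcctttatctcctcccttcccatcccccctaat
Sox4, chr13:28953700-28953949, minus strand: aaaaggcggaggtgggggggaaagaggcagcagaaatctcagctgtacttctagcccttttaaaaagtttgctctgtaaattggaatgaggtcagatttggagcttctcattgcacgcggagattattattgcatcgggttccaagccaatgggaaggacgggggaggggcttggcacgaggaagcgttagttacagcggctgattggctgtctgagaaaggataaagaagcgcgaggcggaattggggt
The Sp5 stretch held 2 matches, CTTTGTT on the opposite strand with its first base at -222 and CTTTGAT on the gene's strand at -104, counted from the start site. The Sox4 stretch held 0. Among 32851 promoters of this length, 4874 (14.8%) held at least 1 match and 469 (1.43%) at least 2. Of the 11 promoters listed for 6 members, 1 of 4 for Lef1 held CTTTGTA, 1 of 2 for Tcf7l2 held CTTTGTT, and those of Tcf7 and Cdx2 held none. A match of letters is a description, not a binding site.

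Sox4, an HMG-box factor of progenitor cells, was lower in every Apc-Prox1 deleted library than in every Apc-deleted one, in both series. It measured 10.42 and 10.65 in Apc-Prox1 deleted libraries of series 1, against 11.38, 11.43, 11.49 and 11.52 in Apc-deleted ones. In series 2 it measured 11.01 and 11.19 in Apc-Prox1 deleted libraries, against 12.44 and 12.16 in Apc-deleted ones. Even across series the genotypes stayed apart: the highest Apc-Prox1 deleted library, at 11.19, lay below the lowest Apc-deleted one, at 11.38. Sox4 fell 2.06-fold, a difference of -1.04 (SE 0.11, 95% interval -1.28 to -0.81, adjusted p = 1.6e-05). The call was kept under all 20 alternative settings, with adjusted p between 2.0e-06 and 0.0488. Series 1 gave -0.92 (adjusted p = 0.000581) and series 2 gave -1.20 (adjusted p = 0.0004), and both calls were lost with all 14 entries as labelled (adjusted p = 0.11 and 0.0718). A dim second Sox4 probe lay at 6.98 to 7.09 in Apc-Prox1 deleted libraries and 7.15 to 7.59 in Apc-deleted ones. It differed by -0.32 (SE 0.08, adjusted p = 0.0158), and without Apc-Prox1 deleted replicate 1 of series 1 its adjusted p was 0.0522.

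Sox9, an HMG-box factor that Wnt signalling maintains in crypts and that mouse Paneth cells require, was also lower. It stood at 12.42 and 12.70 in Apc-Prox1 deleted libraries of series 1, against 12.80, 13.04, 12.81 and 12.80 in Apc-deleted ones. The series 2 levels were 12.61 and 12.87 in Apc-Prox1 deleted libraries, against 13.28 and 13.16 in Apc-deleted ones. The genotypes did not overlap within a series, by a margin of 0.10 in series 1, but did across the series. Sox9 fell by 0.38 on the log2 scale, 1.30-fold (SE 0.09, adjusted p = 0.0128). That call was lost without Apc-Prox1 deleted replicate 1 of series 1 (adjusted p = 0.0774) and without Apc-Prox1 deleted replicate 1 of series 2 (adjusted p = 0.0515). The fit without a term for series lost it too (-0.33, adjusted p = 0.219). The series 1 difference was -0.30 (adjusted p = 0.173). The series 2 difference was -0.48 (adjusted p = 0.076), and passed without Apc-deleted replicate 2 of series 1 (adjusted p = 0.0482). A second Sox9 probe did not pass (-0.11, 95% interval -0.31 to 0.09, adjusted p = 0.544): its levels ran from 7.62 to 8.73 in Apc-Prox1 deleted libraries and from 7.78 to 8.86 in Apc-deleted ones.

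**Figure D2:**
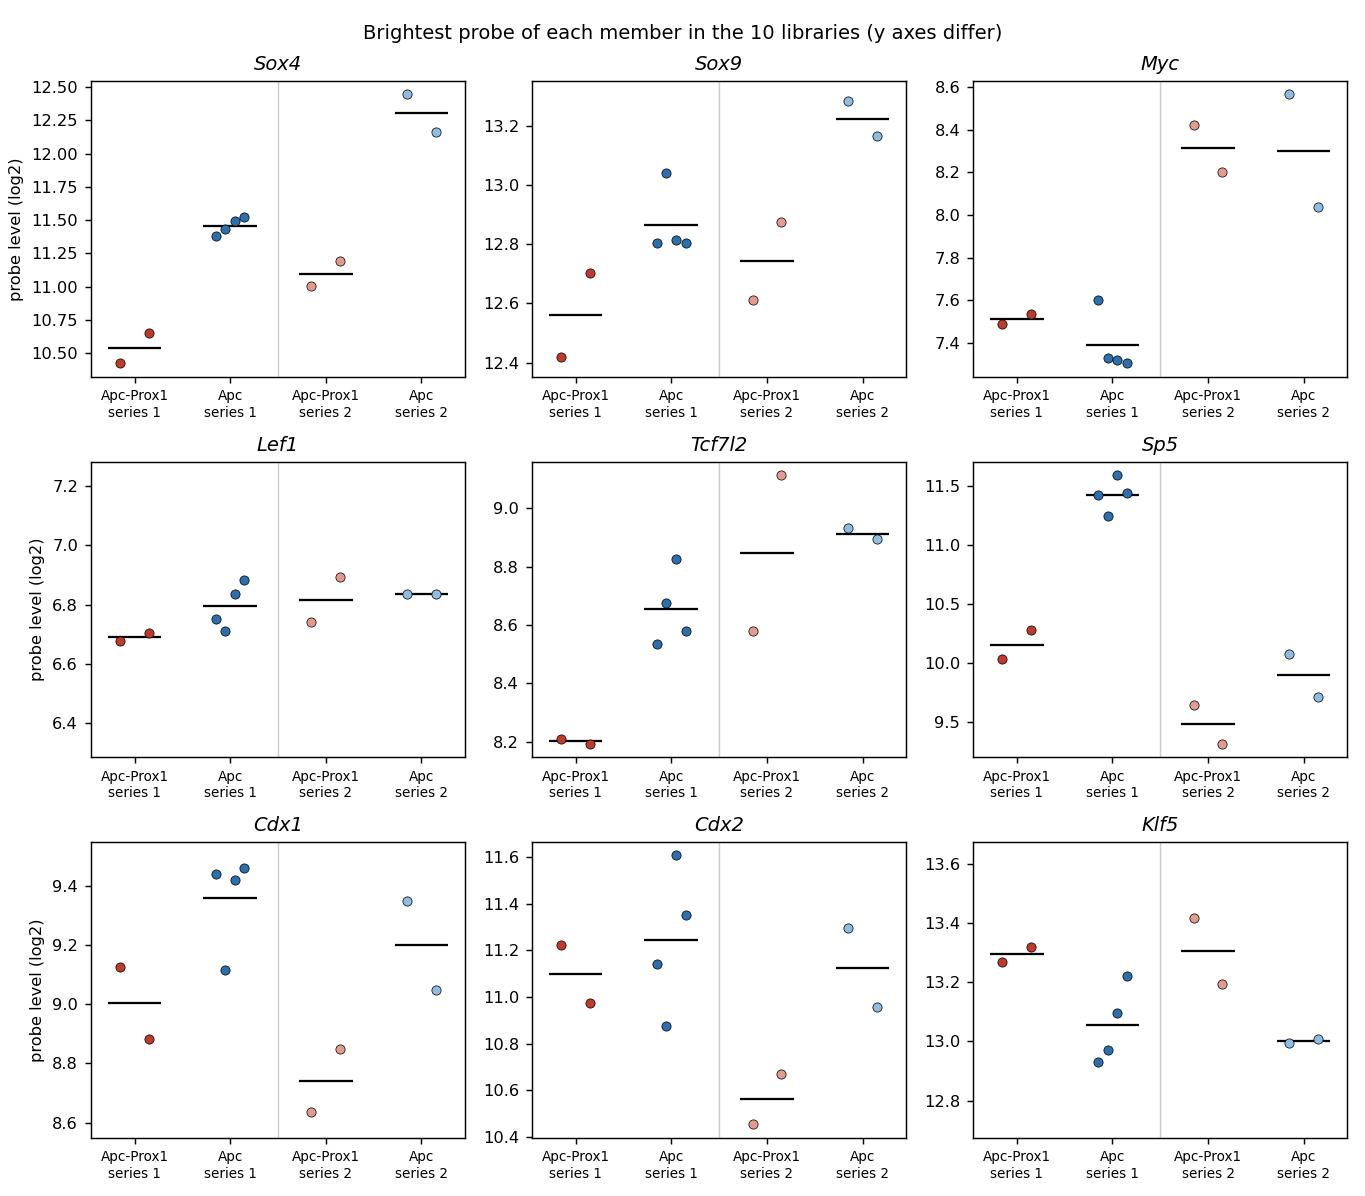
Log2 level of each member's brightest probe in the 10 libraries, with 1 point per library and a line at the group mean; each panel has its own vertical axis, and Apc-Prox1 deleted stands left of Apc-deleted within each series. Sox4, Sox9, Sp5 and Klf5 show no overlap of the genotypes within either series, and Myc overlaps in both.

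Other Sox, Klf and Sp family genes were counted beside the members. Of 25 tested, 2 were lower, 2 higher and 21 not called, with a median difference of 0.01. For this and each list below, the shares over all genes tested were 8.73% called lower and 7.11% called higher. Sox17, a factor of early endoderm, rose by 0.97 (SE 0.23, adjusted p = 0.00969). It was called within series 2 (1.46, adjusted p = 0.011) and not within series 1 (0.60, adjusted p = 0.211). The call over both series was lost with limma's robust variance prior (adjusted p = 0.104) and without a series term (adjusted p = 0.103). Klf7 was lower (-0.49, adjusted p = 0.0162), a call lost when any of 3 libraries was left out (largest adjusted p 0.0597). Sp4 (-0.15) and Sp6 (0.15) passed with group means between 6.73 and 6.98, close to the array median, and were lost when any of 7 libraries or 1 library was left out (largest adjusted p 0.154 and 0.105). Sox12, of the same subgroup as Sox4, did not pass (-0.57, adjusted p = 0.0598), and Sox11, of that subgroup too, had group means of 6.82 to 6.86.

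Sp5, an Sp-family zinc-finger factor directly activated by beta-catenin, was lower in Apc-Prox1 deleted organoids. It reached 10.03 and 10.28 in Apc-Prox1 deleted libraries of series 1, against 11.43, 11.24, 11.60 and 11.44 in Apc-deleted ones. In series 2 the levels were 9.64 and 9.31 in Apc-Prox1 deleted libraries, against 10.08 and 9.71 in Apc-deleted ones. The genotypes were apart in both series, although the nearest libraries of series 2 differed by only 0.07. Sp5 fell by 0.91 over both series, 1.88-fold (SE 0.16, 95% interval -1.25 to -0.57, adjusted p = 0.00127), and lost the call in 1 of 20 alternatives, the fit without a term for series (adjusted p = 0.141). The series 1 difference was -1.27 (SE 0.17, adjusted p = 0.000137), and the series 2 difference was -0.42 (SE 0.20, 95% interval -0.83 to -0.0029, adjusted p = 0.296). The series 2 minus series 1 effect was 0.85 (SE 0.26, unadjusted p = 0.00445, adjusted p = 0.263), so a difference between the series was not called.

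Klf5 went the other way. Its bright probe measured 13.27 and 13.32 in Apc-Prox1 deleted libraries of series 1, against 12.93, 12.97, 13.10 and 13.22 in Apc-deleted ones. In series 2 it measured 13.42 and 13.20 in Apc-Prox1 deleted libraries, against 13.00 and 13.01 in Apc-deleted ones. All Apc-Prox1 deleted libraries lay above the Apc-deleted ones of their series, the closest by 0.05 in series 1. Klf5 rose by 0.27 on the log2 scale, 1.20-fold (SE 0.08, adjusted p = 0.041), which is the weakest of the member calls: it was lost in 13 of 20 alternatives, 7 of them the omission of 1 library. The adjusted p was 0.0607 and 0.0528 without Apc-deleted replicates 1 and 3 of series 1, 0.0959 and 0.134 without Apc-Prox1 deleted replicates 1 and 2 of series 1, 0.0801 and 0.081 without Apc-deleted replicates 1 and 3 of series 2, and 0.132 without Apc-Prox1 deleted replicate 1 of series 2. The second Klf5 probe lay at 6.57 to 6.74, under the filter.

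**Figure D3:**
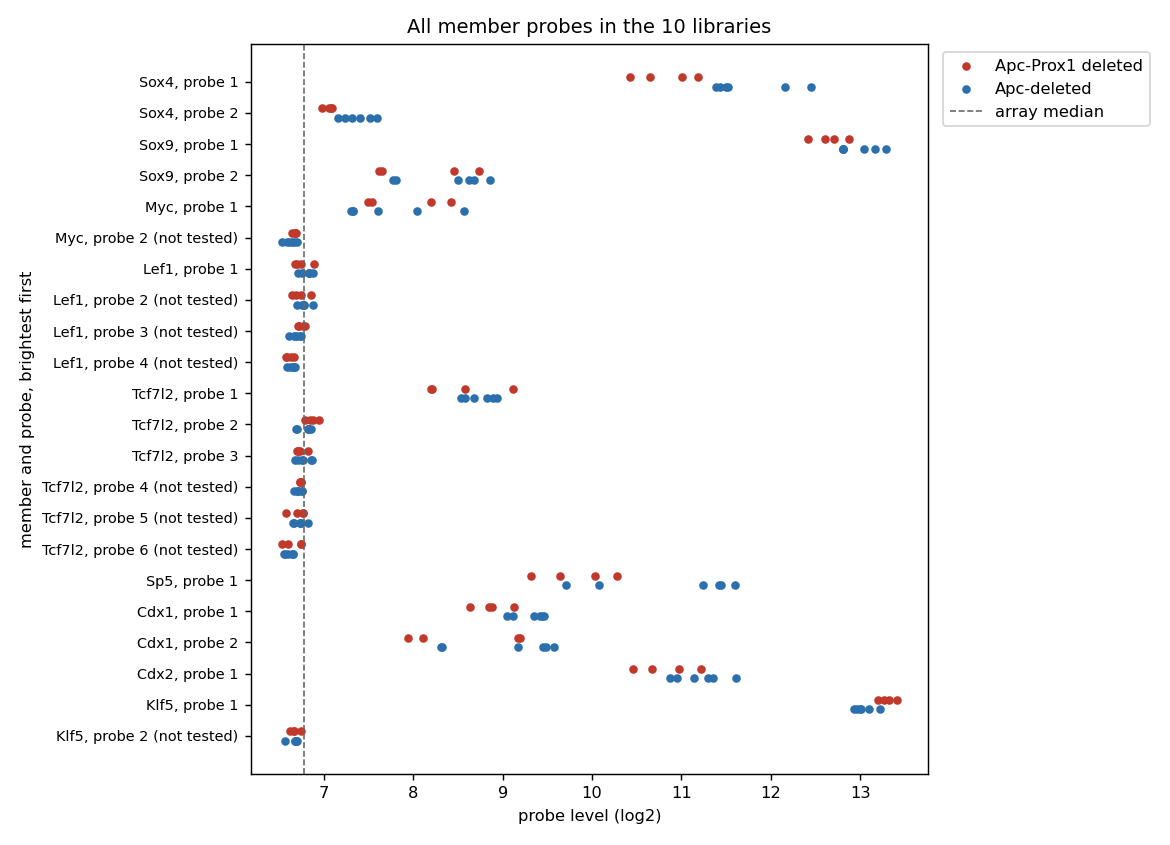
Log2 level of all 22 member probes in the 10 libraries, with each gene's probes ordered from the brightest, Apc-Prox1 deleted libraries above Apc-deleted libraries in each row, and a dashed line at the array median of 6.78. All 4 Lef1 probes and 5 of the 6 Tcf7l2 probes lie along that line.

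The TCF/LEF factors, which carry beta-catenin to DNA, gave no member call over both series. Tcf7l2, the main such factor of intestinal epithelium, measured 8.21 and 8.19 in Apc-Prox1 deleted libraries of series 1, against 8.53, 8.68, 8.83 and 8.58 in Apc-deleted ones. In series 2 it measured 8.58 and 9.11 in Apc-Prox1 deleted libraries, against 8.93 and 8.89 in Apc-deleted ones. The genotypes were apart in series 1 and overlapped in series 2, where a single Apc-Prox1 deleted library, replicate 3, was the highest of all. The Tcf7l2 difference was -0.29 over both series (95% interval -0.55 to -0.03, adjusted p = 0.147), -0.45 for series 1 (adjusted p = 0.0835) and -0.07 for series 2 (adjusted p = 0.909). Without replicate 3 of the Apc-Prox1 deleted series 2 group it was -0.41 over both series and passed (adjusted p = 0.0144), as it did with array weights (-0.35, adjusted p = 0.0264). The series 1 difference passed in 6 of 20 alternatives. These were the omission of that library (adjusted p = 0.0426) or of replicate 1 of its group (adjusted p = 0.045), array weights (adjusted p = 0.011), the deposited ratios (adjusted p = 0.0429), log2 values as recovered (adjusted p = 0.0491) and a fit of the series 1 libraries alone (adjusted p = 0.0499). The other 5 Tcf7l2 probes lay between 6.53 and 6.94.

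Lef1, often switched on in Wnt-driven tumours, lay near the array median on all 4 of its probes, from 6.58 to 6.89. The brightest measured 6.68 and 6.70 in Apc-Prox1 deleted libraries of series 1, against 6.75, 6.71, 6.83 and 6.88 in Apc-deleted ones. Its series 2 levels were 6.74 and 6.89 in Apc-Prox1 deleted libraries, against 6.83 and 6.83 in Apc-deleted ones. Only in series 1 were the genotypes apart, by 0.01. The Lef1 difference was -0.07 over both series (95% interval -0.16 to 0.02, adjusted p = 0.349) and did not pass. In series 1 it was -0.11 (adjusted p = 0.301), and passed with array weights (-0.14, adjusted p = 0.0298).

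Of 18 tested Wnt pathway partners, beta-catenin with its co-activators and the TCF co-repressors, 1 was lower, 1 higher and 16 not called, with a median of 0.01. The lower one was Tcf7l1, the TCF factor known mainly as a repressor. It averaged 6.82 and 7.16 in the Apc-Prox1 deleted groups of series 1 and 2, against 7.47 and 8.44 in the Apc-deleted groups. Tcf7l1 fell 1.90-fold (-0.93, SE 0.12, adjusted p = 6.57e-05), and was called on its own in series 1, at -0.65 (adjusted p = 0.00145), and in series 2, at -1.29 (adjusted p = 1.94e-05). No omission of 1 library ended its call. The higher one, the co-repressor Ctbp2 (0.28, adjusted p = 0.0478), was lost when any of 8 libraries was left out, at adjusted p up to 0.196. Ctnnb1, which encodes beta-catenin, differed by 0.05 (SE 0.13, 95% interval -0.22 to 0.32, adjusted p = 0.869).

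Myc, the growth-promoting helix-loop-helix factor, did not separate the genotypes. It measured 7.49 and 7.54 in Apc-Prox1 deleted libraries of series 1, against 7.60, 7.33, 7.32 and 7.30 in Apc-deleted ones. In series 2 the levels were 8.42 and 8.20 in Apc-Prox1 deleted libraries, against 8.56 and 8.04 in Apc-deleted ones. The genotypes overlapped in both series, and the series lay further apart than the genotypes. The difference was 0.08 (SE 0.11, 95% interval -0.15 to 0.30, adjusted p = 0.733), and without Apc-deleted replicate 3 of series 2 it was -0.0018. A second Myc probe stayed at 6.53 to 6.70.

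Among 14 tested genes of the Myc network, its partners and antagonists, 2 were lower, 1 higher and 11 not called, with a median of -0.01. Mycl, a Myc family member, was lower (-0.78, SE 0.19, adjusted p = 0.0109), averaging 10.44 and 10.20 in the Apc-Prox1 deleted groups of series 1 and 2, against 11.32 and 10.84 in the Apc-deleted groups. Leaving out Apc-Prox1 deleted replicate 1 of series 1 ended that call (adjusted p = 0.0544). The antagonist Mxd3 (-0.39) and Mlxip (0.32) also passed, and were lost when any of 3 and 8 libraries was left out (largest adjusted p 0.0857 and 0.117). Max, the obligate partner of Myc, did not pass over both series (0.19, adjusted p = 0.0503). It was called higher within series 2 (0.34, adjusted p = 0.0158) and not within series 1 (0.07, adjusted p = 0.677).

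Of 21 tested genes of ribosome biogenesis and metabolism that Myc is known to activate, 9 were higher, 1 lower and 11 not called. By the same rule 7.11% of all genes tested were called higher. The median difference was 0.32 over the list and 0.002 over all genes tested. This list too was chosen with earlier results of these data known, so its direction is not independent evidence. The higher ones included Rrp12, a ribosome assembly factor (0.78, adjusted p = 0.000184), the pyrimidine synthesis enzyme Cad (0.65), the spermidine synthase Srm (0.60) and Polr1b, a subunit of RNA polymerase I (0.53). No omission of 1 library ended any of these 4 calls. The Polr1b call was lost with all 14 entries as labelled (adjusted p = 0.106) and without a series term (adjusted p = 0.293). The Cad call was lost without a series term (adjusted p = 0.0717). Cdk4, a cell cycle kinase, was the lower one (-0.52, SE 0.12, adjusted p = 0.00873). Its call was lost with all 14 entries as labelled (adjusted p = 0.31), with replicate number as a block (adjusted p = 0.0734) and without a series term (adjusted p = 0.524). Within series 1, 7 of the 21 passed, and within series 2, 1 did. With 1 library left out, 5 to 10 of them were higher over both series, the 5 without Apc-Prox1 deleted replicate 2 of series 1. It was 4 with all 14 entries as labelled and 3 without a series term, with 0 lower in each.

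The caudal-type factors were lower by their means in both series, and only Cdx1 passed. Cdx1, a Wnt-responsive homeobox factor, measured 9.12 and 8.88 in Apc-Prox1 deleted libraries of series 1, against 9.44, 9.11, 9.42 and 9.46 in Apc-deleted ones. Its series 2 levels were 8.64 and 8.85 in Apc-Prox1 deleted libraries, against 9.35 and 9.05 in Apc-deleted ones. In series 1 Apc-deleted replicate 2 lay just below the higher Apc-Prox1 deleted library, so the genotypes overlapped there and were apart in series 2. Cdx1 fell by 0.40, 1.32-fold (SE 0.12, 95% interval -0.65 to -0.15, adjusted p = 0.0315).

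The Cdx1 call was lost in 8 of 20 alternatives, 5 of them the omission of 1 library, although the difference stayed between -0.47 and -0.34 whichever library was left out. Its adjusted p was 0.146 without Apc-Prox1 deleted replicate 2 of series 1, 0.0985 without Apc-Prox1 deleted replicate 1 of series 2, 0.0528 and 0.0662 without Apc-deleted replicates 3 and 4 of series 1, and 0.0909 without Apc-deleted replicate 1 of series 2. A second Cdx1 probe did not pass (-0.26, adjusted p = 0.118), and passed without Apc-deleted replicate 2 of series 1 (-0.31, adjusted p = 0.0306). It measured 9.19 and 9.17 in Apc-Prox1 deleted libraries of series 1, against 9.49, 9.17, 9.58 and 9.45 in Apc-deleted ones. In series 2 it gave 8.11 and 7.94 in Apc-Prox1 deleted libraries, against 8.32 and 8.31 in Apc-deleted ones.

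Cdx2, the factor that specifies intestine in the embryo, measured 11.22 and 10.98 in Apc-Prox1 deleted libraries of series 1, against 11.14, 10.88, 11.61 and 11.35 in Apc-deleted ones. In series 2 it measured 10.45 and 10.67 in Apc-Prox1 deleted libraries, against 11.29 and 10.96 in Apc-deleted ones. The genotypes overlapped in series 1 and not in series 2. Over both series the difference was -0.32 (SE 0.15, 95% interval -0.64 to -0.01, adjusted p = 0.183), and without Apc-deleted replicate 2 of series 1 it was -0.40 and passed (adjusted p = 0.0461). Series 1 gave -0.14 (adjusted p = 0.778), and series 2 gave -0.56 (95% interval -1.02 to -0.10, adjusted p = 0.189).

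Of 19 other tested transcription factors of intestinal epithelial identity, 1 was lower, 1 higher and 17 not called, with a median of -0.01. Foxa3, a forkhead factor, fell by 0.74 (SE 0.11, adjusted p = 0.000245) and Isx, an intestinal homeobox factor, rose by 0.68 (SE 0.12, adjusted p = 0.000941), and neither call ended with the omission of 1 library. Isx was called within series 1, at 0.99 (adjusted p = 1.58e-05), and not within series 2 (0.28, adjusted p = 0.252). Its call over both series was lost with all 14 entries as labelled (adjusted p = 0.105). Hnf4a (-0.19, adjusted p = 0.388) and Gata6 (-0.32, adjusted p = 0.0643) did not pass.

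Genes known to bind or depend on CDX factors moved both ways. Of 19 tested, 4 were lower, 3 higher and 12 not called, with a median of 0.02. Over all genes tested, 8.73% were called lower and 7.11% higher. Without a series term 0 genes of the list were lower and 0 higher. Sis, the brush-border enzyme sucrase-isomaltase, averaged 8.70 and 8.51 in the Apc-Prox1 deleted groups of series 1 and 2, against 11.18 and 8.66 in the Apc-deleted groups. It fell by 2.48 in series 1 (adjusted p = 1.68e-06) and did not pass in series 2 (-0.15, adjusted p = 0.838), and the series differed by 2.33 (SE 0.33, adjusted p = 0.00147). Over both series Sis was at -1.48 (adjusted p = 0.00604). That call was lost with limma's robust variance prior (adjusted p = 0.0844) and without a series term (adjusted p = 0.121). The membrane mucin Muc13 was lower (-0.54, adjusted p = 0.00981), a call lost without Apc-Prox1 deleted replicate 2 of series 1 (adjusted p = 0.0592). Lct and Mep1a, both at -0.15, had group means of 6.66 to 6.98 near the array median, and were lost when any of 5 and 4 libraries was left out (largest adjusted p 0.189 and 0.237). The higher genes were Lgals4, a galectin (0.56, adjusted p = 0.000444), Cdhr2, a microvillus cadherin (0.57, adjusted p = 0.0109), and Heph, an iron oxidase (0.54, adjusted p = 0.0181). Cdhr2 was lost without Apc-Prox1 deleted replicate 1 of series 1 (adjusted p = 0.0829), and Heph without Apc-deleted replicate 1 of series 2 (adjusted p = 0.0576). With 1 library left out, 1 to 7 genes of the list were lower: 2 without Apc-Prox1 deleted replicate 1 or Apc-deleted replicate 4 of series 1, 1 without Apc-Prox1 deleted replicate 2 of series 1, and 7 without Apc-Prox1 deleted replicate 3 of series 2.

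Of 21 other tested beta-catenin target genes of the crypt, 12 were lower, 3 higher and 6 not called, with a median of -0.40. Over all genes tested, 8.73% were called lower and 7.11% higher. The list was chosen with results of these data known, and its direction is not independent evidence. Notum, a secreted Wnt inhibitor, fell by 3.15 (adjusted p = 1.57e-06), Nkd1, a feedback inhibitor, by 2.33, Tnfrsf19, a receptor of crypt stem cells, by 1.06, and Jun, an AP-1 factor, by 0.87. Each of these 4 was called in both series. The higher ones were the adhesion receptor Cd44 (0.96, adjusted p = 0.000357), cyclin D1, Ccnd1 (0.74, adjusted p = 0.00286), and Sox17, given above. With 1 library left out, 9 to 12 were lower and 3 higher. The counts were 8 lower and 3 higher with all 14 entries as labelled, and 6 lower and 2 higher without a series term.

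**Figure D4:**
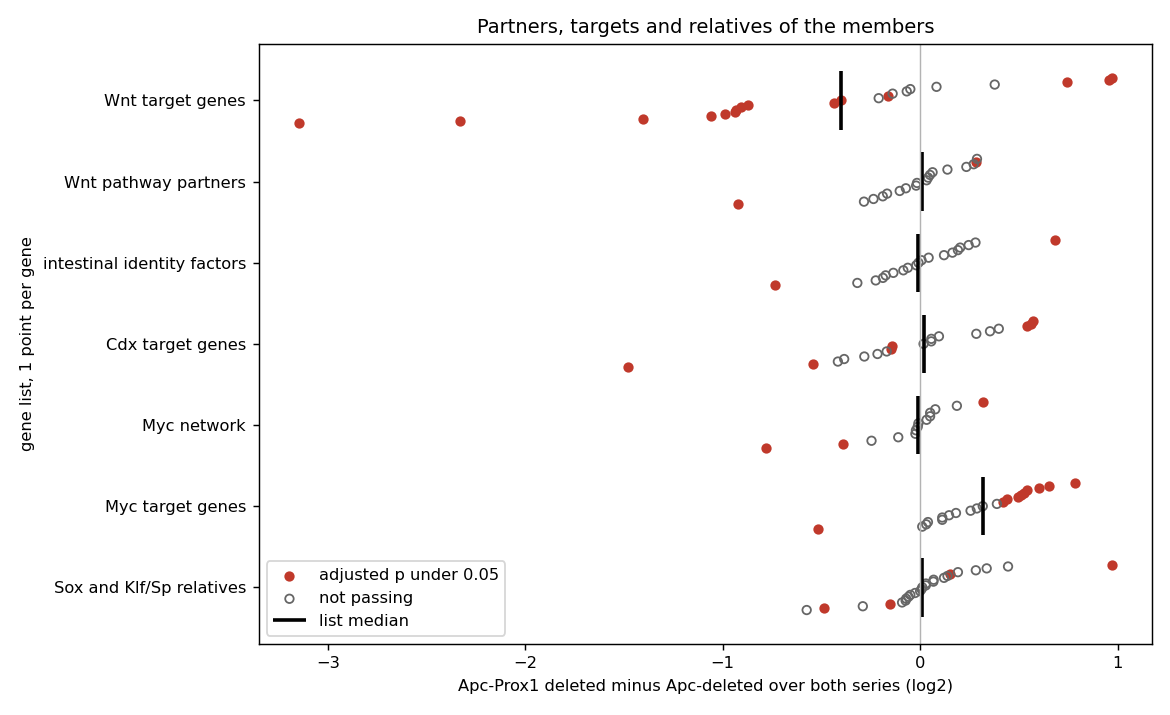
Genotype difference over both series, as Apc-Prox1 deleted minus Apc-deleted in log2, for the tested genes of 7 lists, with 1 point per gene and a bar at the list median; filled points have an adjusted p under 0.05. The Wnt target genes run from -3.15 to 0.97 with a median of -0.40, the Myc target genes have a median of 0.32, and the other medians lie within 0.02 of 0.

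Some cell type markers also differed in the same comparison, in which 8.73% of all genes tested were called lower and 7.11% higher. Of 9 tested enteroendocrine markers, 6 were lower, among them Ghrl (-1.73), Sct (-1.34), Scg2 (-0.77) and Isl1 (-0.58), and 0 higher. The mean level of the 11 markers with a probe was 7.46 to 7.67 in Apc-Prox1 deleted libraries and 8.33 to 8.66 in Apc-deleted libraries of series 1, and 7.70 to 7.79 and 8.15 to 8.31 in those of series 2. Of 6 tested Paneth markers, Defa26 (-1.20) and Pla2g2a (-1.75) were lower, and the mean of the 6 was 10.7 to 11.3 and 11.3 to 11.9 in Apc-Prox1 deleted and Apc-deleted libraries of series 1, and 10.99 to 11.03 and 11.29 to 11.68 in those of series 2. The other 4 Paneth markers did not pass, and Itln1, at 0.36 (adjusted p = 0.216), had the opposite sign in both series. None of 6 goblet and 4 tuft markers was called over both series. Goblet means over 7 markers ran from 8.32 to 8.47 in Apc-Prox1 deleted libraries of series 1, against 8.69 to 8.91 in Apc-deleted ones. The series 2 means were instead higher in Apc-Prox1 deleted libraries, at 8.04 to 8.15 against 7.85 to 7.88. In series 1 the goblet markers Muc2 (-0.83) and Zg16 (-1.19) were called lower, and in series 2 they were at 0.61 and 0.09 and did not pass. Of 5 absorptive enterocyte markers, Sis and Lct were lower over both series. Without a series term 0 of the 5 were lower. With 1 library left out, 1 to 4 were lower, the 4 without Apc-deleted replicate 1 or Apc-Prox1 deleted replicate 3 of series 2, and the 1 when Apc-Prox1 deleted replicate 1 or 2 or Apc-deleted replicate 1, 2 or 4 of series 1 was left out. In series 1, 4 of the 5 were called, the apolipoproteins Apoa1 and Apoa4 among them, each at -1.65, and in series 2, 0 were.

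Among markers of cells outside the epithelium, some immune and endothelial ones were called, and none of the 4 tested fibroblast markers was. The median difference was 0.014 over the immune and -0.007 over the endothelial markers tested. Of 5 tested immune markers, Cd14, a bacterial lipopolysaccharide receptor (0.82, adjusted p = 0.000133), and Laptm5 (0.30, adjusted p = 0.00446) were higher and Cd79b was lower (-0.19, adjusted p = 0.0112). The mean of the 6 immune markers with a probe was 7.13 to 7.16 and 6.91 to 6.96 in Apc-Prox1 deleted and Apc-deleted libraries of series 1, and 7.13 to 7.26 and 7.06 to 7.13 in those of series 2. Of 5 tested endothelial markers, Egfl7 was lower (-0.54, adjusted p = 0.0112), a call lost without Apc-Prox1 deleted replicate 2 of series 1 (adjusted p = 0.093), while Cdh5, a defining endothelial cadherin, lay at group means of 6.77 to 6.80. The mean of the 6 endothelial markers was 7.17 to 7.22 and 7.22 to 7.35 in Apc-Prox1 deleted and Apc-deleted libraries of series 1, and 7.28 to 7.31 and 7.29 to 7.36 in those of series 2. The part of any of these markers in the results for the members was not tested.

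The genes most like each called member were named by the Pearson correlation of brightest-probe levels over the 10 libraries, after each series was centred on its mean. These correlations include the genotype difference itself and are given as a description. Closest to Sox4 were Septin3 (r = 0.988), Slc14a1, a urea transporter (r = 0.988), and Sil1 (r = 0.984). For Sox9 they were Sh3gl2 (r = 0.978), Smarce1, a chromatin remodelling subunit (r = 0.954), and Adnp (r = 0.954). Sp5 was followed most closely by Igsf11 (r = 0.971), Pygb (r = 0.969) and H2-Q5 (r = 0.968). For Cdx1 the closest were Nudt16 (r = 0.980), Vps28 (r = 0.970) and Gpr19 (r = 0.967), and for Klf5 they were P2rx2 (r = 0.952), Hspb8 (r = 0.945) and Akr1c19 (r = 0.944).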

How the data were processed

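The authors' deposited table holds, per Illumina probe and entry, a ratio whose median over each series is 1 for every probe. Each probe's ratios become steps of 0.01 when multiplied by 1 number, so they were read as a log2 value over the probe's series median, and the log2 values were recovered from these deposited ratios with divisors between 6.0 and 16.0. They were settled for 45248 probes, and 33 were left out. Only 5801 had 1 possible divisor in both series; otherwise the smallest was taken, and a doubled divisor would give higher levels and larger differences. All Sox4, Sox9, Tcf7l2, Sp5, Cdx1, Cdx2 and Klf5 brightest probes had a single divisor. The log base was taken from the range, 6.35 to 15.23. Background correction and the authors' normalization are not given in the sources used here. A second deposited table was not used, because its 28 columns of values match no label.

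The 14 entries were compared in 91 pairs. Pairs within 0.02 log2 at every probe were taken as 1 array, and 2 were: replicate 3 of Apc-Prox1 deleted series 1 matched replicate 2 of Apc-Prox1 deleted series 2, and replicate 4 of Apc-Prox1 deleted series 1 matched replicate 2 of Apc-deleted series 2. Other pairs differed by at least 1.1671 somewhere. Those 4 entries were left out, and 10 were used.

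Values were quantile normalised over the 14 entries (limma 3.58.1, R 4.3.3), since upper quartiles differed between the series. As recovered, they were at least 7.38 in the series 1 libraries used and at most 7.01 in the series 2 libraries used. Probes above the 50th percentile in at least 3 of the 10 libraries were tested, 26342 in all, with 18906 removed. limma with a variance trend used genotype and series over both series, and 4 groups within series. Symbols came from GEO's platform annotation, where 34885 probes had 1 symbol, 18 several and 10378 none. The scripts were tested on simulated data. The members and lists were chosen with earlier results of these data known. Genes named from a list were the up to 4 called genes of smallest p in each direction; Sox11, Sox12, Max, Ctnnb1, Hnf4a, Gata6, Krt20, Itln1, Muc2, Zg16, Apoa1, Apoa4 and Cdh5 were added after their values were seen, and epithelial markers are given by level. The number of arrays limits the precision.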

Additional observations from a re-analysis of the deposited data

Results flagged for a closer look

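Among 14 sets of 4 Apc-deleted libraries of series 1, 1 set per tested member probe, 3 held a library far from the other 3. Chance gives about 1 in 20 for a single set. The sets are the same 4 libraries on different probes, so they are not independent and the count cannot be held against that rate. For Sox9, replicate 2 stood at 13.04, against 12.80 to 12.81 in the others. On the second Sox9 probe that library was instead the lowest, at 8.505, against 8.63 to 8.86 in the others. For Cdx1, the same replicate 2 stood at 9.11, against 9.42 to 9.46 in the others. On the second Cdx1 probe it was the lowest too, at 9.17, against 9.45 to 9.58 in the others. For Myc, replicate 1 stood at 7.60, against 7.30 to 7.33 in the others. Sis, a gene known to depend on CDX factors, had a genotype effect that differed between series, by 2.33 log2 (SE 0.33, limma adjusted p = 0.00147), with -2.48 in series 1 and -0.15 in series 2.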

How the results depend on the processing

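Over both series the number of members called was 5, and 2 to 6 with 1 library left out. It was 3 with replicate number as a block and 1 without a series term. Probes called were 3353, with 1916 to 3852 when 1 library was left out (1916 and 2086 without Apc-Prox1 deleted replicates 2 and 1 of series 1), 1996 with the replicate block, 5096 with array weights and 917 without a series term. In series 1, members called were 2, with 2 to 3 when 1 library was left out, 1 with all 14 entries as labelled, 3 on the series 1 libraries alone and 5 with array weights. Probes called there were 2191, 738 to 2610 with 1 library left out (738 and 771 without Apc-Prox1 deleted replicates 2 and 1) and 4610 with array weights. In series 2, 1 member was called, 1 to 2 with 1 library left out and 0 with all 14 entries. Probes called there were 1085, 413 to 1260 with 1 library left out (413 without Apc-Prox1 deleted replicate 1 and 466 without Apc-deleted replicate 1), 184 with all 14 entries, 360 on the deposited ratios, 372 with cyclic loess, 393 on log2 values as recovered and 568 on the series 2 libraries alone. The difference between series was called at 148 probes, 66 to 169 with 1 library left out, 53 with all 14 entries, 64 with the filter met on all 10, 59 on the ratios and 229 with the replicate block. The cause of these moves was not tested.

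Signs turned only in differences that were never called. With 1 library left out, the Myc difference ran from -0.0018 to 0.17 over both series and from -0.25 to 0.27 in series 2, where cyclic loess gave -0.0025. In series 2, Lef1 ran from -0.0929 to 0.0571 and Tcf7l2 from -0.33 to 0.20. The third Tcf7l2 probe, over both series, ran from -0.0332 to 0.0053 and gave 0.0145 with the replicate block. Cdx2 in series 1 was 0.0918 with the replicate block. The series difference of Cdx1 ran from -0.25 to 0.0487 and was 0.0112 with all 14 entries. That of Klf5 ran from -0.0468 to 0.18, and was -0.0244 with all 14 entries and -0.0402 with the replicate block. Of 1596 values for named genes under alternatives, 1422 kept both sign and call, 144 lost a call, 14 gained one and 16 changed sign. Deviations from the group mean correlated at -0.025 to 0.191 between same-numbered libraries of the genotypes, and 6 of 8 libraries correlated best with their own number. In a group of 2 libraries the deviations mirror each other, so these matches are not independent. They cannot decide whether the numbers pair samples. The numbers were not taken to pair samples, and the fits with replicate number as a block are given above. Probes near the array median compress differences, and the 2 libraries in 3 of the 4 groups limit the precision.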
